A study of Canis lupus familiaris with 29 samples.

Results

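The genes for mitochondrial ribosomal proteins were followed through the growth of MDCKII cells, a dog kidney epithelial line, into cysts and monolayers. Members were the genes whose symbol in the expression files begins with MRPL or MRPS followed by a number and, in some, the letter A or B. Of 24223 genes, 60 matched, no symbol was repeated, and all 60 passed the filter on low values that left 11774 genes for testing. The rule used names alone and no expression value, but the set was chosen with earlier results of these data known. RNA sequencing covered 29 libraries in 13 groups. DENND5A-KD cells, with a knockdown of DENND5A, formed 3 groups of 2 libraries: day 0, day 4 on inserts and day 7 on inserts. AVL9-KD cells formed 2 such groups, at day 0 and at day 4 on inserts. Cysts of wild-type cells on matrigel (3D) had 2 libraries at each of 24 h, 3 days, 5 days and 8 days and a single one after 14 days. Wild-type cells kept on transwell inserts (2D) until over-confluent had 3 libraries after 4 days and 3 after 11 days. Wild-type cells collected at seeding (day 0, n = 4) were the baseline of both courses. Every group is the same cell line in the same maintenance medium, and the labels name no further treatment. DENND5A and AVL9 are genes of the DENN domain family, most of whose characterised members act on RAB GTPases. Knockdown libraries are numbered 1 and 2 (DENND5A) and 1 and 4 (AVL9); what the numbers mark is not stated, and a control line made in the same way was not analysed here. Nor is it stated that replicates grew apart from each other, and the spread behind each p-value may therefore be technical.

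Mitochondria keep their own ribosome, which has a large and a small subunit and translates only the few messages of the mitochondrial genome, all for subunits of the respiratory chain and ATP synthase. Its RNA is made inside the organelle, whereas every one of its proteins is encoded in the nucleus, made in the cytosol and imported. Many of these proteins descend from the bacterial ribosome and others were added during the evolution of mitochondria. Epithelia of the kidney tubule rely on mitochondrial respiration to drive ion transport. Of the 60 genes, 40 encode large subunit proteins and 19 small subunit proteins, with MRPS18A and MRPS30 counted as large because their proteins sit there despite their names. By the grouping used here, bacterial homologues number 37 and proteins specific to mitochondria 22. It places MRPS18A among the former and MRPS18B among the latter although they share a family name, so both counts are approximate. The remaining gene, MRPS36, has a mitoribosomal name but encodes a subunit of the oxoglutarate dehydrogenase complex of the tricarboxylic acid cycle.

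Values are FPKM, fragments scaled to transcript length and library total, which allow levels of genes to be compared and are relative within a library, so in these bulk samples fewer cells of a kind and less RNA per cell cannot be told apart. Read depth relative to the second day 0 library ran from 0.454 to 1.67. The sole 14-day library and replicate 1 in each of 4 groups (2D day 4, 3D day 3, 3D day 8, day 0) made up a set of 5 that stood apart, with a relative depth of 0.454 to 0.707 against 0.835 to 1.10 in the other wild-type libraries. Both targeted genes were lower in their knockdowns than in wild type. DENND5A read 1.88 and 2.02 FPKM in its knockdown at day 0, against 4.98 to 6.89 FPKM in wild type, and AVL9 read 5.70 and 7.21 FPKM in its knockdown, against 22.2 to 23.7 FPKM. At 2D day 4 DENND5A read 3.36 and 4.29 FPKM in its knockdown, against 10.2 to 10.9 FPKM in wild type, and AVL9 3.89 and 6.35 FPKM, against 17.9 to 25.1 FPKM. The summed level of the 4 epithelial markers found, of 6 listed, was 388 to 863 FPKM. All 15 markers found of fibroblasts, endothelium and leukocytes stayed under 1 FPKM in every library.

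The 60 genes differed widely in level and less in pattern. Averaged over the 29 libraries, the median member stood at 19.9 FPKM and 49 members reached 10 FPKM. MRPS21 was highest with 106.7 FPKM, followed by MRPS6 with 97.2 FPKM, both homologues of bacterial small subunit proteins. The next were MRPL20 with 78.9 FPKM, MRPL55 with 58.0 FPKM and MRPL15 with 46.4 FPKM, all of the large subunit. The lowest were MRPS36 with 1.31 FPKM, listed at 0 in replicate 1 of 3D day 3, MRPL42 with 3.31 FPKM and MRPL50 with 6.36 FPKM. Across libraries the members largely moved together: the correlation of log2 values was above 0 for 94.9% of the 1770 pairs, with a median of 0.63, and 51 members had a correlation of at least 0.5 with the mean of the others. These are descriptions over 29 libraries that share culture conditions and depth and that differ in total FPKM. Other genes were not correlated in the same way, so the values are not shown to be particular to the set. MRPL36 was the exception, at -0.19 with the mean of the others, followed by MRPL10 at 0.09.

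The summed level of the set was low on transwell inserts and highest in AVL9-KD cells at day 0. In wild type the summed FPKM of the 60 genes was 1654 ± 189 (SD, n = 4) at day 0. In cysts it was 1684 ± 153 at 24 h, 1800 ± 5.03 at day 3, 1607 ± 407 at day 5 and 1534 ± 20.3 at day 8 (n = 2 each), and 1630 in the day 14 library. On inserts it was 1115 ± 168 at day 4 and 1204 ± 42.4 at day 11 (n = 3 each), 67.4% and 72.8% of the day 0 mean. Every insert library of wild type, from 927 to 1253 FPKM, was below every day 0 library, from 1424 to 1887 FPKM, whereas the cyst libraries overlapped day 0. Total FPKM also differed, from 276017 to 441332 over the libraries. As a share of its library total, the set made up 0.462% to 0.514% at day 0 and 0.336% to 0.392% on wild-type inserts. In cysts that share was 0.494% and 0.499% at 24 h and 0.383% and 0.515% at day 5. It was 0.409% and 0.456% at day 3, 0.364% and 0.452% at day 8 and 0.417% at day 14, below every day 0 library. At day 0, DENND5A-KD cells summed to 1638 ± 188 and AVL9-KD cells to 2046 ± 16.6 FPKM (n = 2 each), beside the 1654 of wild type. At 2D day 4 the sums were 1060 ± 79.3 in DENND5A-KD and 1416 ± 42.1 in AVL9-KD cells, beside the 1115 of wild type, and DENND5A-KD cells at 2D day 7 had 1063 ± 37.8.

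**Figure D1:**
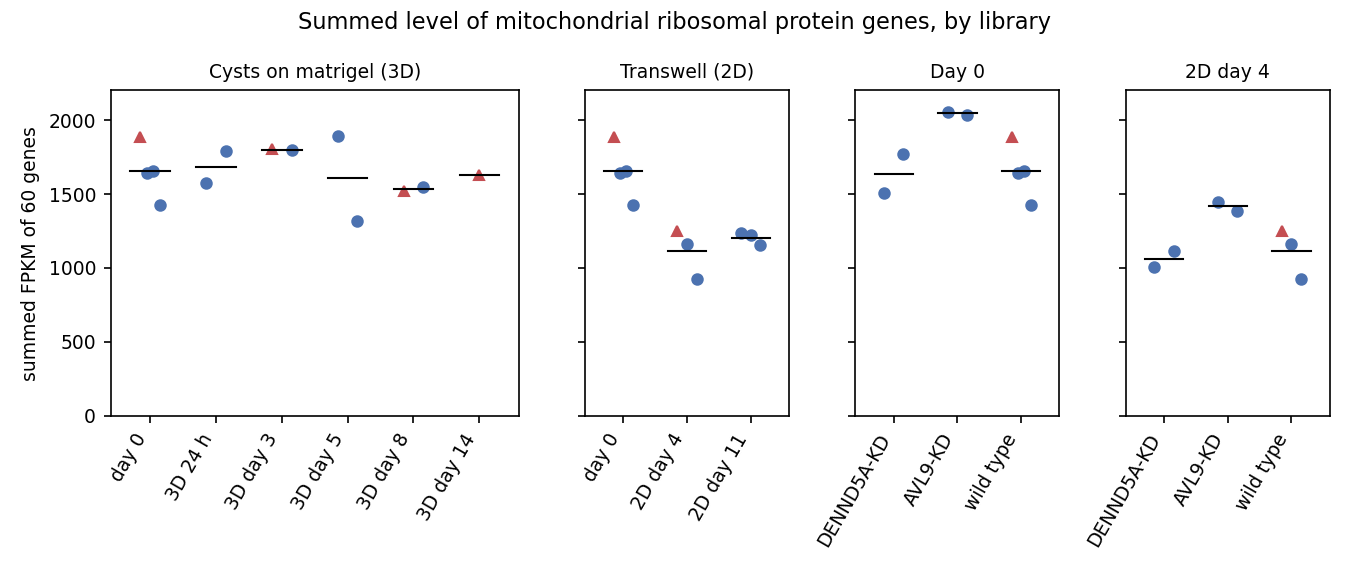
Summed FPKM of the 60 genes on the vertical axis, with one point per library and a black bar at the group mean; red triangles are the 5 libraries that stood apart, and the day 0 and 2D day 4 wild-type libraries appear in more than 1 panel. Insert cultures of wild type (927 to 1253 FPKM) lie below day 0 (1424 to 1887 FPKM), cysts overlap day 0, and the AVL9-KD libraries at day 0 (2034 and 2058 FPKM) lie above wild type.

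Set against day 0, most of the set was lower on inserts at day 4. Of the 60 members 43 fell and 1 rose at an adjusted p under 0.05 (limma, Benjamini-Hochberg over all genes tested), where 29.6% of all genes tested fell and 30.3% rose; the members' shares were 71.7% and 1.67%. The median member changed by -0.60 on the log2 scale of FPKM + 1, against 0.00 for all genes tested, and 56 members lay below the median of all genes. Small subunit genes fell in 17 of 19 cases and large subunit genes in 26 of 40. Bacterial homologues fell in 28 of 37 and mitochondria-specific members in 15 of 22. For 40 members every 2D day 4 library was below every day 0 library, as for 27.4% of all genes.

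The deepest declines at 2D day 4 were those of MRPS12, MRPL35 and MRPS10. MRPS12, a homologue of the bacterial protein at the decoding site of the small subunit, read 18.3, 13.5 and 8.45 FPKM on inserts, against 49.1, 36.7, 29.8 and 27.3 FPKM at day 0. No library of one group reached the other, and the log2 change was -1.37 ± 0.23 (SE; adjusted p = 3.16e-05). MRPL35, a large subunit protein, read 9.17, 9.74 and 7.32 FPKM at 2D day 4, against 22.5, 21.97, 23.03 and 18.3 FPKM at day 0, a log2 change of -1.21 ± 0.14 (adjusted p = 3.72e-07), again with no overlap. For MRPS10, of the small subunit, the values were 13.6, 16.2 and 11.7 FPKM at 2D day 4 and 34.1, 30.02, 32.9 and 29.3 FPKM at day 0 (-1.14 ± 0.14, adjusted p = 8.27e-07). The abundant members took part: MRPL20 stood at 42.1, 52.8 and 43.1 FPKM on inserts, against 78.05, 93.5, 90.4 and 80.5 FPKM at day 0 (-0.88 ± 0.17, adjusted p = 0.000198). MRPL15 was likewise lower in every insert library, with 36.9, 29.7 and 23.4 FPKM, against 74.8, 60.95, 54.9 and 44.3 FPKM at day 0 (-0.95 ± 0.18, adjusted p = 0.000146). MRPL55 changed by -0.79 ± 0.21 (adjusted p = 0.00234) and MRPS6 by -0.46 ± 0.15 (adjusted p = 0.0113), where the MRPS6 call was lost under quantile normalization or without 2D day 4 replicate 3. The most abundant member, MRPS21, changed least of these, by -0.36 (limma, adjusted p = 0.0264), and its call was lost under 4 of 15 settings. Its groups overlapped, with up to 91.0 FPKM on inserts and as little as 90.7 FPKM at day 0.

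MRPL36, a small homologue of a bacterial large subunit protein, was the only member called higher on inserts. It read 43.2, 28.5, 26.5 and 22.9 FPKM at day 0, 77.7, 43.8 and 47.97 FPKM at 2D day 4 and 51.7, 44.7 and 48.9 FPKM at 2D day 11. The lowest insert library exceeded the highest day 0 library at both times, and the replicate that stood apart was the highest of its group at day 0 and at day 4. The log2 change was 0.87 ± 0.21 at day 4 (adjusted p = 0.00146) and 0.70 ± 0.21 at day 11 (adjusted p = 0.00879).

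After 11 days on inserts most of the set was again lower, though not its most abundant members. Against day 0, 39 members fell and 1 rose, 65% and 1.67% of the set, where 23.7% and 32.2% of all genes tested did so. The median member changed by -0.49 and the median of all genes by 0.06. For 40 members every 2D day 11 library was below every day 0 library, as for 25.7% of all genes. MRPS10 had the largest decline, to 13.7, 11.7 and 13.9 FPKM at 2D day 11, against 34.1, 30.02, 32.9 and 29.3 FPKM at day 0 (-1.21 ± 0.14, adjusted p = 6.98e-07). MRPL3, which in bacteria reaches toward the catalytic centre of the large subunit, stood at 13.4, 12.9 and 14.5 FPKM, against 34.7, 27.5, 24.8 and 24.3 FPKM at day 0 (-0.97 ± 0.11, adjusted p = 8.3e-07). MRPS12 stood at 15.9, 21.3 and 15.7 FPKM on day 11 (-0.96 ± 0.23, adjusted p = 0.00136). Groups did not overlap for MRPS10, MRPL3 or MRPS12. The most abundant members, MRPS21 and MRPS6, were called lower at 2D day 4 but not at day 11. MRPS21 had a mean of 95.0 FPKM at 2D day 11, against 101.5 FPKM at day 0. For MRPS6 the means were 107.1 and 106.1 FPKM. Set against 2D day 4, 2D day 11 had 0 members called by limma in either direction, with 7 at an unadjusted p under 0.05, where 2.08% of all genes tested were called; the median member differed by 0.11, within the range of -0.82 to 0.48 over members. Both comparisons with day 0 share the day 0 libraries.

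In cysts members were called in both directions, in each at a share below or near that of all genes. Set against day 0, 3D 24 h gave 0 members called by limma, with 4 at an unadjusted p under 0.05, where 1.19% of all genes were called. At 3D day 3, 8 members rose and 5 fell (13.3% and 8.33%, where 28% and 23.1% of all genes did), at day 5, 5 rose and 13 fell (8.33% and 21.7%, against 26.4% and 31.2% of all genes), and at day 8, 5 rose and 21 fell (8.33% and 35%, against 24.7% and 38%). These shares are below or near the background in each direction. The median member changed by 0.04, -0.12 and -0.20 at days 3, 5 and 8, and the median of all genes by 0.05, -0.04 and -0.13. Relative to the median of all genes, 31 members were lower and 29 higher at day 8. The balance of calls moved with the scaling. With quantile normalization 14 rose and 5 fell at day 3, 12 rose and 9 fell at day 5, and 13 rose and 6 fell at day 8; with median-ratio scaling 9 rose and 11 fell, 8 rose and 12 fell, and 10 rose and 14 fell. Without the 5 libraries that stood apart, 2 rose and 10 fell at day 8, and without 3D day 3 replicate 2 the day 3 calls numbered 7. At day 8 the 21 members that fell comprised 10 of 19 small subunit and 11 of 40 large subunit genes, and all 5 that rose were of the large subunit. These subunit counts are those of the main scaling alone.

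MRPL36 was the member that rose most in cysts. It read 43.2, 28.5, 26.5 and 22.9 FPKM at day 0, 23.1 and 34.9 FPKM at 24 h, 62.6 and 53.4 FPKM at day 3, 69.8 and 50.5 FPKM at day 5, 81.4 and 65.2 FPKM at day 8 and 85.4 FPKM at day 14. From day 3 onward no cyst library overlapped day 0, and the log2 change was 0.95 ± 0.24 at day 3, 0.99 ± 0.24 at day 5 and 1.28 ± 0.24 at day 8 (limma, adjusted p = 0.00274, 0.00161 and 0.000122). Without 3D day 5 replicate 2 the day 5 change of MRPL36 was 0.76. MRPL50, a mitochondria-specific protein of the large subunit and among the lowest members at day 0, was also higher in cysts. Its values were 7.29, 4.57, 5.57 and 4.65 FPKM at day 0, 4.53 and 4.72 FPKM at 24 h, 8.74 and 8.62 FPKM at day 3, 10.9 and 6.27 FPKM at day 5, 12.7 and 11.2 FPKM at day 8 and 15.1 FPKM at day 14. It was above day 0 without overlap at days 3 and 8 and overlapped at day 5, where 1 library was low; the log2 change at day 8 was 1.00 ± 0.20 (adjusted p = 0.00021). On inserts MRPL50 read 5.07, 4.63 and 3.97 FPKM at day 4, within its day 0 range apart from 1 lower library, and was not called (-0.22 ± 0.18, adjusted p = 0.301).

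Smaller rises in cysts came from MRPL14, MRPL17, MRPL2 and MRPL43. MRPL14, which lies at the face of the large subunit that meets the small one, read 13.6 and 15.4 FPKM at 3D day 3, against 8.32, 10.1, 8.87 and 7.66 FPKM at day 0, with no overlap (0.68 ± 0.17, adjusted p = 0.00229); its change was 0.53 at day 5 and 0.44 at day 8 (adjusted p = 0.0101 and 0.0278). MRPL17, a homologue of a bacterial protein near the exit of the peptide tunnel, changed by 0.37, 0.36 and 0.40 at days 3, 5 and 8 (adjusted p = 0.0436, 0.0394 and 0.0235). MRPL2, of the core of the large subunit, rose at day 3 (0.45 ± 0.14, adjusted p = 0.0117) and day 5 (0.34 ± 0.14, adjusted p = 0.0467) and was not called at day 8 (0.15, adjusted p = 0.381). MRPL43 stood at 14.8 and 17.2 FPKM at 3D day 8, against 12.2, 12.04, 11.6 and 9.22 FPKM at day 0 (0.47 ± 0.20, adjusted p = 0.0421), and was lower than day 0 at 2D day 11 (-0.43 ± 0.17, adjusted p = 0.0436). These calls were close to the threshold: those of MRPL17 at day 3, MRPL2 at day 5 and MRPL43 at day 8 and 2D day 11 were each lost under at least 6 other settings, and that of MRPL14 at day 8 under 4, while each setting kept the sign. At day 5 the calls of MRPL14, MRPL17, MRPL2 and MRPL50 were lost without 3D day 5 replicate 2, where the changes were 0.09, 0.13, 0.12 and 0.18; with the groups of the comparison alone they were lost too.

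The members that fell most in cysts were MRPL3, MRPL4 and MRPS2, with MRPS10 and MRPS12 among them at day 5. MRPL3 read 34.7, 27.5, 24.8 and 24.3 FPKM at day 0, 20.6 and 24.1 FPKM at 24 h, 17.2 and 18.6 FPKM at day 3, 14.1 and 14 FPKM at day 5, 14.9 and 13.7 FPKM at day 8 and 16.3 FPKM at day 14. Every cyst library was below every day 0 library, and the log2 change was -0.92 ± 0.13 at day 5 (adjusted p = 5.95e-06) and -0.90 ± 0.13 at day 8 (adjusted p = 5.74e-06). MRPL4, whose bacterial homologue lines the peptide exit tunnel, read 38.5, 38.3, 38.3 and 33.6 FPKM at day 0, 18.8 and 24.2 FPKM at day 3, 21.96 and 22.9 FPKM at day 5 and 19.4 and 17.8 FPKM at day 8. It did not overlap day 0 at any of these times, with a log2 change of -0.96 ± 0.12 at day 8 (adjusted p = 9.1e-07). MRPS2, of the small subunit, stood at 15.8 and 13.9 FPKM at 3D day 8, against 30.7, 28.4, 28.2 and 24.2 FPKM at day 0 (-0.86 ± 0.16, adjusted p = 8.95e-05). MRPS10 changed by -0.79 ± 0.16 and MRPS12 by -0.80 ± 0.26 at day 5 (adjusted p = 0.000282 and 0.0122), the MRPS12 call being lost without 3D day 5 replicate 3. For MRPL3, MRPL4, MRPS2 and MRPS10 the day 8 decline was called with both other scalings as well. On inserts the same 3 leading genes changed by -0.96 (MRPL3), -0.93 (MRPL4) and -0.72 (MRPS2) at day 4, all called, with day 0 libraries shared.

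**Figure D2:**
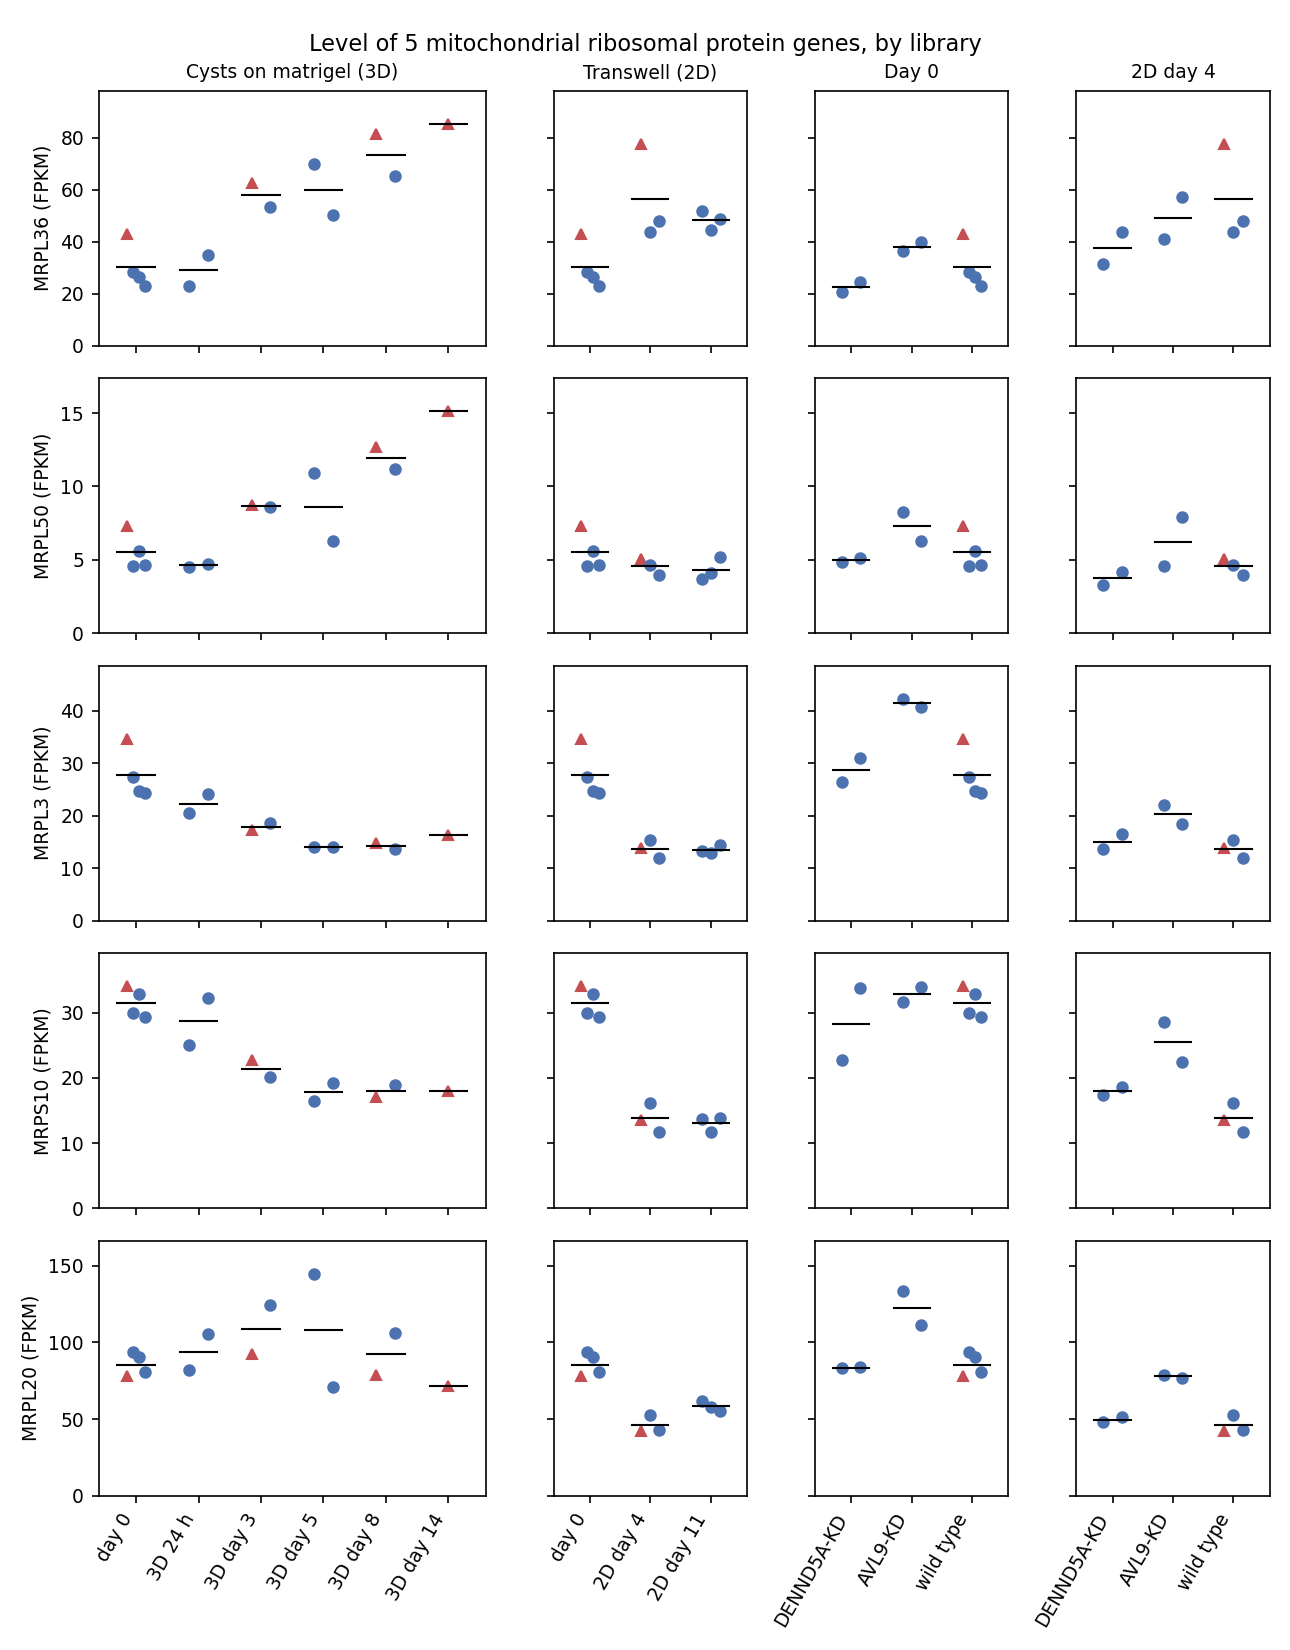
FPKM of 5 genes (vertical axes) by library, with a black bar at the group mean and red triangles for the 5 libraries that stood apart; day 0 and 2D day 4 wild-type libraries appear in more than 1 panel. From day 3 on MRPL36 is above day 0 in cysts and on inserts, MRPL50 is above day 0 at 3D days 3 and 8, MRPL3 and MRPS10 are below day 0 in both cultures from day 3 on, and MRPL20 is below day 0 on inserts.

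Compared directly, cysts at days 3, 5 and 8 had higher levels of the set than inserts at days 4 and 11. Of 60 members 44 were called higher and 0 lower (limma), 73.3% of the set, where 22.1% of all genes were higher and 34.8% lower; 47 members had an unadjusted p under 0.05. The median member differed by 0.48 and the median of all genes by -0.08, and 58 members lay above the median of all genes. For 26 members all 6 cyst libraries were above all 6 insert libraries, as for 8.15% of all genes. As a share of library total the cultures overlapped. The set made up 0.364% in 3D day 8 replicate 1 and 0.383% in 3D day 5 replicate 3, within the 0.336% to 0.392% of inserts. In the other cyst libraries at these days it made up 0.409% to 0.515%. Higher levels were called for 16 of 19 small subunit and 28 of 40 large subunit genes. The largest difference was that of MRPL50, 0.96 ± 0.13 (adjusted p = 5.8e-06). MRPL20 read 92.4 and 125 FPKM at 3D day 3, 145 and 70.8 FPKM at day 5 and 78.8 and 106 FPKM at day 8, against 42.1, 52.8 and 43.1 FPKM at 2D day 4 and 61.8, 57.7 and 55.6 FPKM at day 11. The lowest cyst library was above the highest insert library (0.94 ± 0.13, adjusted p = 6.96e-06). MRPL15 differed by 0.93 ± 0.14 (adjusted p = 1.16e-05), also with no overlap. For MRPL3, MRPL4 and MRPS2, lower in both cultures than at day 0, the difference between cultures was 0.16 ± 0.09, -0.02 ± 0.08 and -0.09 ± 0.11, none called (adjusted p = 0.128, 0.835 and 0.508). MRPL36 was not called either (0.29 ± 0.16, adjusted p = 0.134). The cultures differ in days of growth as well as in support, which cannot be told apart in this comparison.

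**Figure D3:**
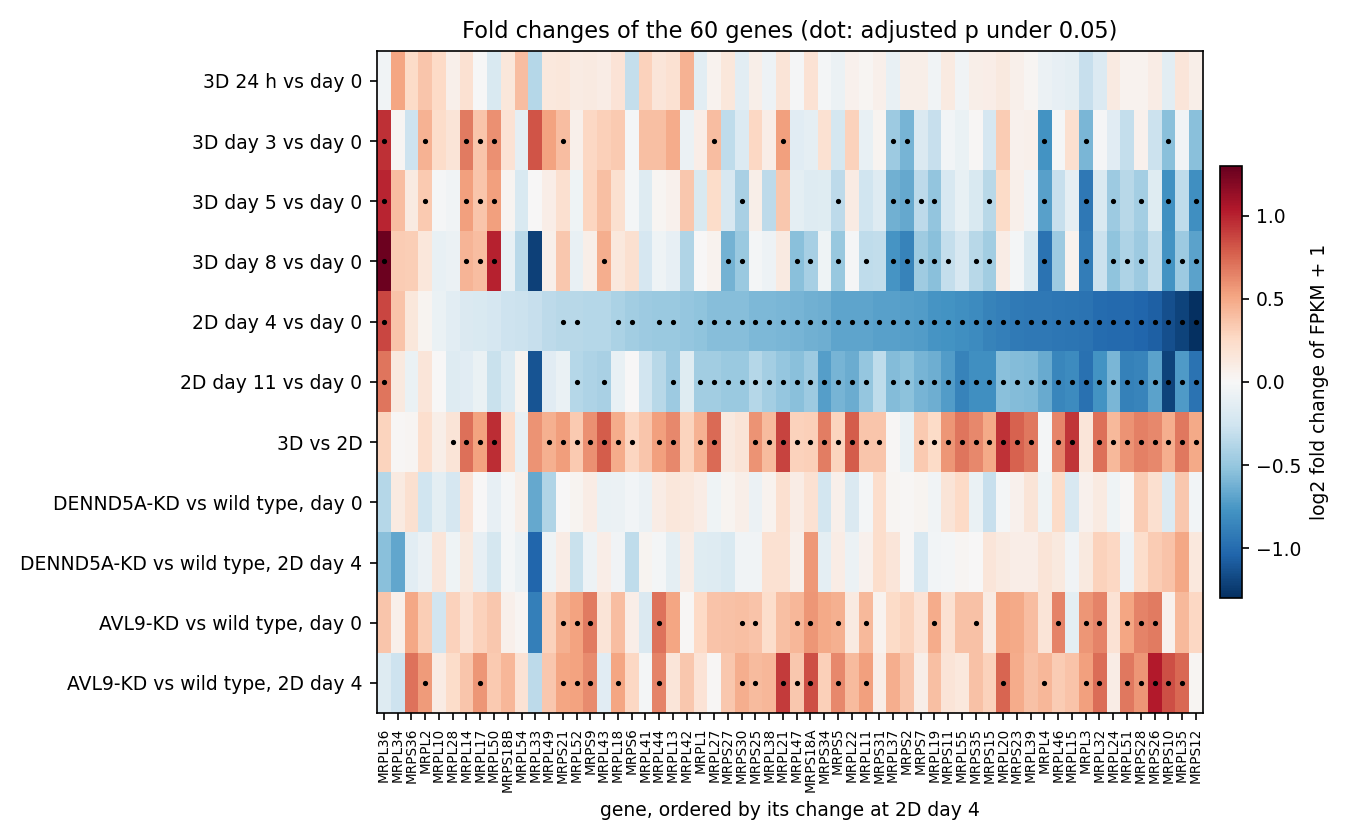
Log2 fold change of FPKM + 1 (colour) of each of the 60 genes (columns, ordered by the change at 2D day 4) in 11 comparisons (rows); a dot marks an adjusted p under 0.05. Blue with dots fills most of the 2D rows (43 and 39 members lower), the 3D against 2D row is red (44 higher), and the AVL9-KD rows are red with fewer dots (18 and 23 higher); MRPL36, leftmost, is the sole red dot in the 2D rows.

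Knockdown of DENND5A left no member past the threshold. Set against wild type, DENND5A-KD cells had 0 members called by limma at day 0 and 0 at 2D day 4, with 2 and 6 at an unadjusted p under 0.05, where 5.52% and 11.3% of all genes were called. The median member differed by 0.02 at day 0 and 0.01 at 2D day 4. Differences at 2D day 4 ran from -1.03 (MRPL33) to 0.56 (MRPS18A). MRPL35 stood at 12.1 and 13.4 FPKM in the knockdown, against 9.17, 9.74 and 7.32 FPKM in wild type (0.51 ± 0.17, adjusted p = 0.0571), not called, and the groups overlapped for neither it nor MRPS18A (0.56 ± 0.19, adjusted p = 0.0661). With quantile normalization 4 members were called higher and 1 lower at 2D day 4, with MRPL35 and MRPS18A among the higher ones, and with median-ratio scaling 2 higher and 1 lower. Between 2D day 7 and 2D day 4 of the knockdown, 0 members were called and 1 had an unadjusted p under 0.05, where 0.051% of all genes were called. The change in the knockdown effect between 2D day 4 and day 0 was called for 0 members, with 3 at an unadjusted p under 0.05, where 1.83% of all genes were called.

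Knockdown of AVL9 went with higher levels of part of the set at both times. At day 0, 18 members were higher and 0 lower, 30% of the set, where 13.4% of all genes were higher and 4.59% lower. At 2D day 4, 23 were higher and 0 lower, 38.3%, where 18.7% and 2.34% of all genes were. The median member differed by 0.37 at day 0 and 0.38 at 2D day 4, and the median of all genes by 0.11 and 0.19, so that 48 and 44 members lay above the median of all genes. MRPS26, a mitochondria-specific small subunit protein, read 44.5 and 42.7 FPKM in AVL9-KD cells at day 0, against 29, 27.5, 28.8 and 23.1 FPKM in wild type. At 2D day 4 it read 25.8 and 26.9 FPKM, against 11.6, 12.6 and 13.05 FPKM in wild type. Neither pair of groups overlapped, and the log2 difference was 0.67 ± 0.15 at day 0 and 1.03 ± 0.16 at 2D day 4 (adjusted p = 0.00466 and 0.000189). MRPL44, a large subunit protein related to ribonuclease III, differed by 0.70 ± 0.18 at day 0 and 0.65 ± 0.19 at 2D day 4 (adjusted p = 0.00961 and 0.0183). MRPS9 read 21.5 and 40.9 FPKM in AVL9-KD cells at day 0, against 19.9, 18.6, 18.7 and 16.1 FPKM in wild type; the knockdown libraries differed widely, and the difference of 0.67 ± 0.20 (adjusted p = 0.0233) was not called with either other scaling. MRPL21 stood at 10.5 and 14.2 FPKM in AVL9-KD cells at 2D day 4, against 5.30, 6.63 and 6.28 FPKM in wild type (0.91 ± 0.16, adjusted p = 0.000772), and MRPS18A at 30.7 and 28.6 FPKM, against 14.1, 19.8 and 14.9 FPKM (0.84 ± 0.19, adjusted p = 0.00477), neither with overlap. Of the members with the deepest declines on inserts in wild type, MRPS10 differed by 0.84 ± 0.17 and MRPL35 by 0.74 ± 0.17 (limma, adjusted p = 0.00188 and 0.00418). MRPS12, which declined most there, was not called. It read 14.8 and 11.6 FPKM in AVL9-KD cells at 2D day 4, against 18.3, 13.5 and 8.45 FPKM in wild type. In all, 34 members at day 0 and 38 at 2D day 4 were above wild type in both AVL9-KD libraries without overlap, where 26.8% and 38.1% of all genes were.

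The AVL9-KD counts rested on the scaling and on single libraries. In relative depth the AVL9-KD libraries lay outside the 0.835 to 1.10 of wild type other than the 5 that stood apart, at 0.688 (library 1) and 1.67 (library 4) at day 0 and at 1.62 (library 1) and 0.536 (library 4) at 2D day 4, whereas DENND5A-KD libraries ran from 0.933 to 1.27. The shallower library of each AVL9-KD group lay within the range of the 5, and the part of depth in these counts was not tested beyond leaving each library out. With quantile normalization 5 members were higher and 1 lower at day 0 and 12 higher and 0 lower at 2D day 4, and with median-ratio scaling 7 higher and 1 lower and 8 higher and 0 lower. The MRPL44 call at 2D day 4 was among those lost with median-ratio scaling. At day 0 the count was 2 without AVL9-KD library 1 and 8 without library 4, and 10 and 7 without wild-type replicates 3 and 4. The day 0 calls of MRPS26 and MRPL44 were lost without AVL9-KD library 1, and that of MRPS9 without AVL9-KD library 4 or wild-type replicate 4. At 2D day 4 it was 7 without AVL9-KD library 1, 15 without library 4 and 9 without wild-type replicate 3, and the MRPL44 call was lost without AVL9-KD library 1 or wild-type replicate 3. Fitting the 2 groups alone left 1 call at day 0 and 0 at 2D day 4, with the same fold changes. The change in the AVL9-KD effect between 2D day 4 and day 0 was called for 0 members (limma), with 3 at an unadjusted p under 0.05, where 1.22% of all genes were called. As controls had no matched line, an effect of the knockdown and of making a line cannot be told apart.

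Other parts of the mitochondrial gene expression machinery were read from lists chosen with earlier results of these data known. Of 6 mitoribosomal proteins named outside the MRPL and MRPS scheme, all 6 fell at 2D day 4, 2 fell at 3D day 8, and all 6 were higher in 3D than in 2D (median difference 0.57). DAP3, a small subunit protein also known as a death-associated protein, had a mean of 7.65 FPKM at 2D day 4, against 14.9 FPKM at day 0 (log2 change -0.87, adjusted p = 1.96e-06). Beside the counts below, 29.6% of all genes tested fell and 30.3% rose at 2D day 4, 38% fell and 24.7% rose at 3D day 8, and 22.1% were higher and 34.8% lower in 3D than in 2D. Of 17 mitoribosome assembly factors, 10 fell and 3 rose at 2D day 4 and 10 fell and 3 rose at 3D day 8; MRM1, a ribosomal RNA methyltransferase, changed by -1.19 and -1.85. In 3D against 2D 5 of these 17 were higher and 2 lower, with a median of 0.08. Of 16 translation factors, 8 fell and 1 rose at 2D day 4 and 9 were higher in 3D than in 2D, and LRPPRC, which stabilises mitochondrial messages, changed by -1.04 at 2D day 4. Of 16 genes for mitochondrial aminoacyl-tRNA synthetases and related enzymes, 9 fell and 3 rose at 2D day 4. RARS2, which charges arginine, was among those that rose, with a mean of 22.0 FPKM at 2D day 4, against 6.25 FPKM at day 0 (1.67, adjusted p = 6.95e-09).

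The messages that the mitoribosome translates, and the genes that work with their products, were counted in the same way, and at 2D day 11, 23.7% of all genes tested fell. Of 13 genes of the mitochondrial genome, 3 fell and 1 rose at 2D day 4, 10 fell at 2D day 11, 8 rose and 0 fell at 3D day 8, and 12 were higher in 3D than in 2D (median difference 0.98). Their transcripts are counted here from libraries made by mRNA selection. Of 41 nuclear genes for oxidative phosphorylation, 15 fell and 0 rose at 2D day 4, 15 rose and 7 fell at 3D day 8, and 34 were higher and 0 lower in 3D than in 2D (median 0.59). Import genes fell in 17 of 23 cases at 2D day 4 and 11 of 23 at 3D day 8, with TOMM40, the pore of the outer membrane, at a mean of 14.4 FPKM at 2D day 4, against 53.8 FPKM at day 0 (-1.83, adjusted p = 1.03e-09). Of 12 tricarboxylic acid cycle genes, 5 fell and 2 rose at 2D day 4. Of 15 regulators of mitochondrial gene expression, 8 fell and 0 rose at 2D day 4; MYC, a transcription factor that activates growth genes, had a mean of 31.9 FPKM, against 98.3 FPKM at day 0 (-1.60, adjusted p = 2.97e-07). In AVL9-KD cells at 2D day 4 MYC had a mean of 82.1 FPKM, against 31.9 FPKM in wild type (1.35, adjusted p = 0.000278). There 18.7% of all genes were higher and 2.34% lower. By list, 11 of 23 import genes were higher and 1 lower, 5 of 12 tricarboxylic acid cycle genes and 6 of 41 nuclear oxidative phosphorylation genes were higher, and 0 of 13 mitochondrial genome genes were called (limma, 1 at an unadjusted p under 0.05).

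Cytosolic ribosomal protein genes, which build the ribosome outside the organelle, were higher in cysts. Of 28 tested, 25 rose and 0 fell at 3D day 8 (median 1.00), and at 2D day 4, 2 rose and 1 fell (median 0.14). Mitosis genes, a gauge of cell division, fell in 16 of 16 cases at 2D day 4 (median -2.42), 2D day 11 (-1.41) and 3D day 8 (-1.83), where the members' medians were -0.60, -0.49 and -0.20; the part of cell division in the members' levels was not tested. Between 2D day 11 and 2D day 4, 15 of 16 mitosis genes were higher at day 11, where 2.08% of all genes were called. In DENND5A-KD cells at 2D day 4, 15 of 16 mitosis genes were higher than in wild type (median 1.35), where 11.3% of all genes were called. In AVL9-KD cells at 2D day 4, 0 of 16 mitosis genes were called (limma), with 2 at an unadjusted p under 0.05 and a median of -0.40. There 18.7% of all genes were higher and 2.34% lower.

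**Figure D4:**
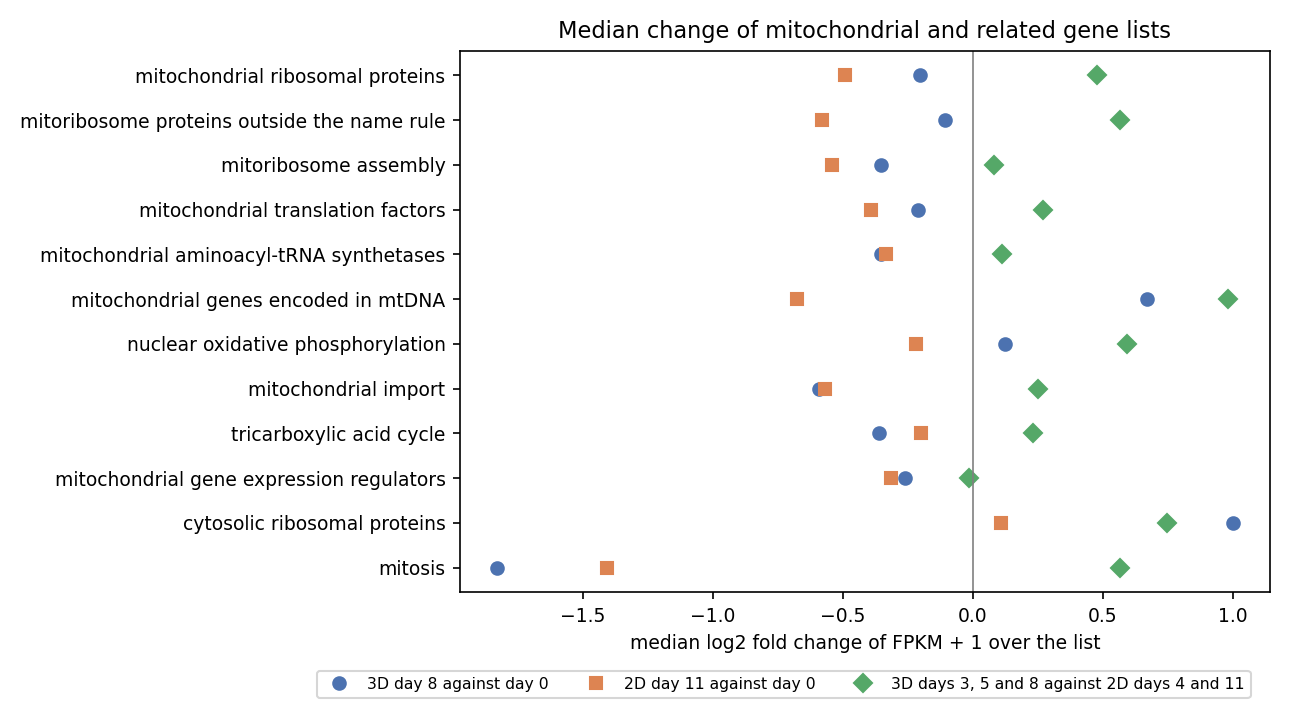
Median log2 fold change of FPKM + 1 over the tested genes of each list (horizontal axis) for 3D day 8 against day 0 (blue circles), 2D day 11 against day 0 (orange squares) and 3D against 2D (green diamonds). Mitochondrial ribosomal proteins stand at -0.20, -0.49 and 0.48, and cytosolic ribosomal proteins at 1.00, 0.11 and 0.74.

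A few members were uneven within groups. The 5 libraries that stood apart had 1.21 FPKM (day 0), 1.27 FPKM (3D day 3), 1.21 FPKM (3D day 8), 1.36 FPKM (3D day 14) and 0.837 FPKM (2D day 4) of MRPL42, a mitochondria-specific large subunit protein, against 1.94 to 6.87 FPKM in the other 24 libraries. MRPL42 was the only member whose values in the 5 did not overlap the rest, and it was called in no comparison. In all 4 groups with other replicates, 9 members were higher in the library that stood apart (MRPL15, MRPL36, MRPL46, MRPL49, MRPL50, MRPS12, MRPS15, MRPS18B and MRPS34) and 2 were lower (MRPL20 and MRPL42). The share of all genes tested that did so was not counted, so these numbers cannot be read as particular to the set. MRPL33, singled out after its values were seen, was uneven to a greater degree. It read 91.9, 10.6, 55.8 and 39.6 FPKM at day 0, 142 and 33.4 FPKM at 3D day 3 and 99.8, 19.8 and 15.1 FPKM at 2D day 4. The library that stood apart was the highest of each of these groups but the lower of 3D day 8, at 12.7 and 20.5 FPKM. With a standard error of 0.70 on the change at 3D day 8 (-1.21, adjusted p = 0.14), MRPL33 was called in no comparison. MRPS36 ranged from 0 to 2.90 FPKM and was likewise never called. The part of library quality in these values was not tested. At 3D day 5 the replicates differed across the set: the summed level was 1895 FPKM in replicate 2 and 1318 FPKM in replicate 3, and the median change from day 0 was -0.36 without replicate 2 and 0.13 without replicate 3.

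**Figure D5:**
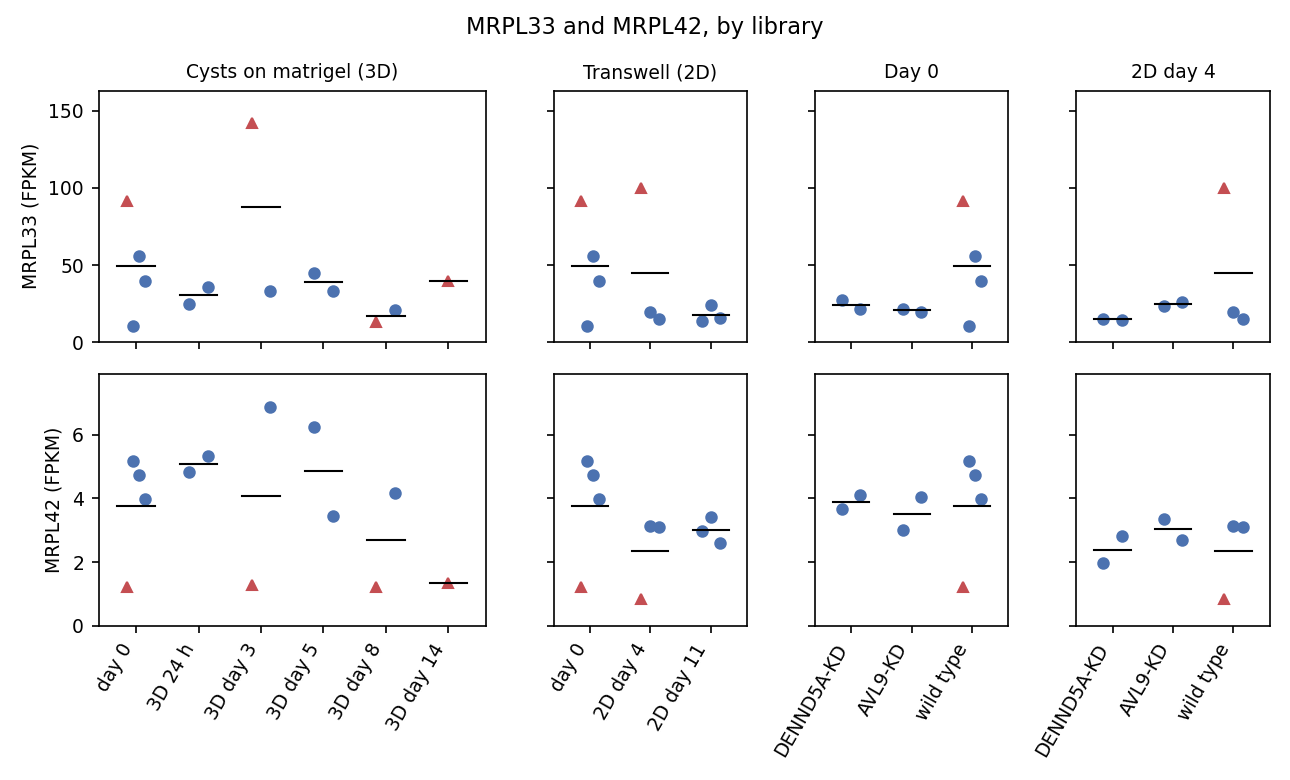
FPKM of MRPL33 and MRPL42 (vertical axes) by library, with a black bar at the group mean; red triangles are the 5 libraries that stood apart, and the day 0 and 2D day 4 wild-type libraries appear in more than 1 panel. MRPL42 reads 0.837 to 1.36 FPKM in the 5 and 1.94 to 6.87 FPKM elsewhere, whereas MRPL33 is higher than the other replicates in 3 of 4 such libraries and lower in that of 3D day 8.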

How the data were processed

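The data are RNA sequencing of 29 MDCKII libraries, prepared from total RNA with a kit for stranded mRNA libraries per the labels' protocols. The values in FPKM were deposited by the authors, with 24223 dog genes in each file. Cufflinks 2.2.1, HISAT2 2.1.0 and the builds canFam3 and CanFam3.1 are named per the submitters' processing notes; their roles, strand setting and treatment of multiply mapped reads are not given in the sources used here, so members with pseudogene copies or overlapping genes are uncertain. Counts were not used here and absolute depth is unknown; relative depth was read from steps between low FPKM values. No sequences or coordinates were used.

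The members and lists were chosen with earlier results of these data known. Genes reaching 1 FPKM in 2 or more libraries (11774) were kept. A single limma model with trend (limma 3.58.1, R 4.3.3) on log2(FPKM + 1) estimated a mean for each group from the 29 libraries, and each of 15 contrasts had 2-sided p-values adjusted by Benjamini-Hochberg, with a threshold of 0.05. Fold changes are log2 differences of FPKM + 1 and understate changes of low genes. No test was made for the single day 14 library. Named members were up to 3 higher and 3 lower per contrast (largest log2 change, adjusted p under 0.05, at least 5 FPKM in the higher group, no overlap), the 5 highest and 3 lowest, any with a mean of at least 5 FPKM listed at 0 in a library, and those called against the majority at 3D day 8 or 2D day 11. Other lists show up to 3 members with the smallest adjusted p.

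Alternatives comprised median-ratio scaling or quantile normalization, a pseudocount of 0.1, no filter, the replicate number as a block, the groups of a contrast alone, a batch term for the 5 libraries that stood apart or their omission, and leaving out each library. No pair of libraries was identical. The fit used group means without pairing. The code was tested on simulated data. Python 3.11.15, pandas 2.3.3, numpy 2.4.6 and matplotlib 3.10.9 read files and drew figures.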

Additional observations from a re-analysis of the deposited data

Results flagged for a closer look

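In the day 0 group of wild type, MRPL4 read 33.6 FPKM in replicate 4 and 38.3 to 38.5 FPKM in the other 3 libraries, a gap large enough to pass Dixon's criterion. The same library read 28.5 FPKM of MRPL41, a mitochondria-specific large subunit protein, where the other 3 read 42.6 to 43.7 FPKM. Each of the 60 members was tested in this group, the only one of 4 to 10 libraries, and chance flags about 1 in 20 groups.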

How the results depend on the processing

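Of 224 counts of called members recomputed, 202 were within 1.5 times the main count and 22 were not. This measure compares totals alone, so a comparison with 0 main calls agrees whenever it stays at 0. The members behind a like total can also differ. At 3D day 8 quantile normalization kept 11 of the 26 main calls and gained 8, which is within 1.5 times. No called value of a named member reversed, and 53 of 99 named calls held under every setting tried. The counts at 2D day 4 (44), 2D day 11 (40) and in 3D against 2D (44) kept at least 40, 37 and 40 of the same calls under the settings that leave out no single library, and at least 37, 35 and 38 when one was left out. Counts that moved by over 1.5 times were 3D day 3 against day 0 with median-ratio scaling (20, main 13), 3D day 5 with its groups alone (10, main 18), 3D day 8 without the 5 libraries (12, main 26), 2D day 11 against 2D day 4 with the replicate block (1, main 0), DENND5A-KD at 2D day 4 with quantile normalization (5, main 0) and median-ratio scaling (3), AVL9-KD at day 0 with quantile normalization (6, main 18), median-ratio scaling (8) and its groups alone (1), and AVL9-KD at 2D day 4 with quantile normalization (12, main 23), median-ratio scaling (8) and its groups alone (0). The groups alone leave fewer libraries to estimate the spread; for the other settings the cause was not tested. At 3D day 3 the replicate block gave 8 higher and 9 lower members, main 8 and 5.

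Leaving out each library in turn gave 7 to 14 calls at 3D day 3, 13 to 20 at 3D day 5, 18 to 26 at 3D day 8, 37 to 49 at 2D day 4, 35 to 42 at 2D day 11, 0 to 1 for 2D day 11 against day 4 (1 without 2D day 11 replicate 3), 38 to 45 for 3D against 2D, 2 to 19 for AVL9-KD at day 0, 7 to 25 for AVL9-KD at 2D day 4 and 0 to 1 for DENND5A-KD at 2D day 4 (1 without 2D day 4 replicate 2 of wild type). The other comparisons, including 3D 24 h, DENND5A-KD at day 0 and both interactions, stayed at 0. Where a group was left with 1 library, that library was assumed to vary like the others.

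Scaling moved the median of all genes by over 0.1 at 3D day 8 (-0.13, against -0.02 with quantile normalization and 0.00 with median-ratio scaling) and in AVL9-KD at day 0 (0.11, against -0.01 and 0.00) and 2D day 4 (0.19, against 0.00 and -0.02). The median of members then stood at 0.08 and -0.02 at 3D day 8, 0.19 and 0.24 for AVL9-KD at day 0, and 0.18 and 0.15 at 2D day 4.

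Deviations of same-numbered wild-type libraries from their group means had correlations of -0.16 to 0.56, over 0.1 in 19 of 41 pairs (median 0.08). Differently numbered wild-type pairs were over 0.1 in 14 of 96 (median -0.03). The highest same-numbered value was between replicate 1 of day 0 and of 2D day 4, both of the set that stood apart. Of 17 libraries 10 correlated best with their own number, and wild-type numbers were not taken as pairs. Knockdown libraries share a number across days. As each knockdown group had 2 libraries, every correlation appears for both numbers. The distinct values were 0.010, 0.048 and 0.097 for DENND5A-KD and 0.36 for AVL9-KD, and these were not taken as pairs either. With the replicate block the knockdown comparisons gave 0, 18, 0 and 24 calls (DENND5A-KD and AVL9-KD at day 0, then at 2D day 4), and, apart from 2D day 11 against 2D day 4, the block moved no count by over 1.5 times. Groups of 2 libraries limit every cyst and knockdown comparison.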
